A study of Mus musculus with 32 samples.

Results

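The genes described here are 6 LIM homeobox genes (Lhx1, Lhx2, Lhx6, Lhx8, Lhx9 and Lmx1b) and the 2 genes of their cofactors, Ldb1 and Ldb2. They were matched by the platform's gene symbol and make 8 of the 18193 genes that at least 1 probe set of the array names alone. Expression was measured on 32 Affymetrix mouse arrays of jaw tissue from embryos at embryonic day 13.5, given as log2 values, on which a difference of 1 is a doubling. The tested embryos were Alk5 knockouts, in which floxed Alk5 (gene symbol Tgfbr1, the TGF-beta type I receptor) was the target of Wnt1cre, a Cre transgene active in cells that form the neural crest. The other cells of the jaw, such as epithelium, are not the target of this Cre. Controls were littermates from matings of Wnt1cre;Alk5fl/+ with Alk5fl/fl animals, and the labels do not give the alleles that each control carried. Knockouts were recognised by a cleft palate and a defect of the calvaria, and the strain label of every sample is C57B6. For each genotype there were 4 arrays of distal mandible, 4 of proximal mandible, 4 of distal maxilla and 4 of proximal maxilla, numbered 1 to 4. Nothing in the labels says whether the numbers are separate embryos or whether tissue was pooled, so the p-values below measure the spread between these arrays, which may in part be technical.

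LIM homeodomain proteins bind DNA through a homeodomain and bind cofactors through a pair of LIM domains. Ldb1 and Ldb2 dimerise and join LIM proteins into larger complexes, and LIM-only proteins such as Lmo1 compete for the same cofactors. In the mouse, Lhx6 and Lhx8 are expressed in oral mesenchyme derived from the neural crest, where FGF signals from the oral epithelium induce them, and loss of Lhx8 causes cleft palate.

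To show the sequence context of Lhx8, Lhx6, Lhx2 and Lhx9, 4 promoter windows are printed, each of 300 bases around an annotated start. They are RefSeq sequence of build GRCm38.p6, 5' to 3' on the gene's strand. Lhx6 has 3 annotated windows and Lhx2 has 2, of which the ones with a match are shown. Lhx8 and Lhx6 are shown as the pair that varied together, and Lhx2 and Lhx9 as the pair with opposite levels in the jaws. Each of 3 motifs was searched on both strands and is in capitals where found. TAATTA is a core that homeodomains bind, and so is TAATTG. The last, CAGACA, which reads TGTCTG on the other strand, holds the core that Smad proteins bind. The matches do not overlap in the windows shown.
Lhx8, chr3:154330511-154330810, minus strand: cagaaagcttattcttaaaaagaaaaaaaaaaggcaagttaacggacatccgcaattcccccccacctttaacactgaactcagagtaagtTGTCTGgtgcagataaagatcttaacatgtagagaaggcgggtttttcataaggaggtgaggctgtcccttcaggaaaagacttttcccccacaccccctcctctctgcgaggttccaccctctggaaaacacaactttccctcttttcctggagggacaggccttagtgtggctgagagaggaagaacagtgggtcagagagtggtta
Lhx6, chr2:36104011-36104310, minus strand: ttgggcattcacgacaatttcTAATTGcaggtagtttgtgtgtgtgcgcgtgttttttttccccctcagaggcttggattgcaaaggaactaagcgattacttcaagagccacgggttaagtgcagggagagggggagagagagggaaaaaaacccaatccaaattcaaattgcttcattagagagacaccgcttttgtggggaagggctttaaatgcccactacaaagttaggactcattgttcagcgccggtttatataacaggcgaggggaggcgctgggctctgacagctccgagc
Lhx2, chr2:38339031-38339330, plus strand: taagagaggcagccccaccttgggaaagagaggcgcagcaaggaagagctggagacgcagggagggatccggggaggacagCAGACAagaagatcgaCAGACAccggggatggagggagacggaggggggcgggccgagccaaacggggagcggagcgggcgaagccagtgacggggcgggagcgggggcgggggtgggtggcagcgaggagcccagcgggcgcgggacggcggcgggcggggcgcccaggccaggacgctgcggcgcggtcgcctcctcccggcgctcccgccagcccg
Lhx9, chr1:138842395-138842694, minus strand: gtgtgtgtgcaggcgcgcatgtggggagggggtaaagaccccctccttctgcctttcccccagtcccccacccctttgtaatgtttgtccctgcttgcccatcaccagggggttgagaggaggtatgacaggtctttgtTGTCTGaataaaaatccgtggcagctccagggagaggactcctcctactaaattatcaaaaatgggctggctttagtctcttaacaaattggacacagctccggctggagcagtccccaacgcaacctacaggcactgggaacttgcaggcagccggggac
Windows were found for 7 of the 8 members, 12 windows in all. TAATTA was in 0 of the 12, and 5.29% of the 32851 windows of this length in the table held it. TAATTG was in 3 of the 12 (1 of Lhx6 and 2 of Ldb1), against 8% of all windows. CAGACA was in 3 of the 12 (Lhx2, Lhx8 and Lhx9), against 21% of all windows. These are matches of letters and not measured binding sites.

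Several arrays stood apart. The bacteriophage Cre spike-in control read 13.53 to 13.85 on the 8 arrays of number 1 and 12.17 to 13.07 on the other 24. Xist read 13.34 to 14.06 on the arrays of Alk5 knockout number 1 and control number 2 and at most 10.72 elsewhere, with 9.69 and 10.72 on control distal and proximal maxilla number 3. The mean of Y-linked genes was 10.05 and 9.97 on those maxilla arrays, and Xist read 6.70 and 6.84 on control distal and proximal mandible number 3. Whether those maxilla arrays hold tissue of both sexes was not tested. The difference between the ends of the maxilla, taken over all tested genes, correlated at -0.73 (Alk5 knockout number 4) and -0.69 (control number 2) with the mean of the other sets. For the other 6 sets this value was 0.13 to 0.31, and for the mandible it was 0.56 to 0.82 in all 8. Whether the end labels of Alk5 knockout number 4 and control number 2 are crossed in the maxilla cannot be told from the labels. Control distal mandible number 3 had a Gapdh difference between 3' and 5' probe sets of 2.23, against -0.18 to 0.12 on the other arrays. Markers of neural crest derived mesenchyme averaged between 10.96 and 12.82 on every array, with 6 of 6 tested. Tgfbr1 itself read 12.96 ± 0.03 in Alk5 knockout and 12.68 ± 0.07 in control distal mandible, and 13.07 ± 0.18 and 12.65 ± 0.10 in Alk5 knockout and control distal maxilla (SD, n = 4). The position of its probes relative to the deleted part is not given in the sources used here, and for that reason the reading is no check of the genotypes.

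**Figure D1:**
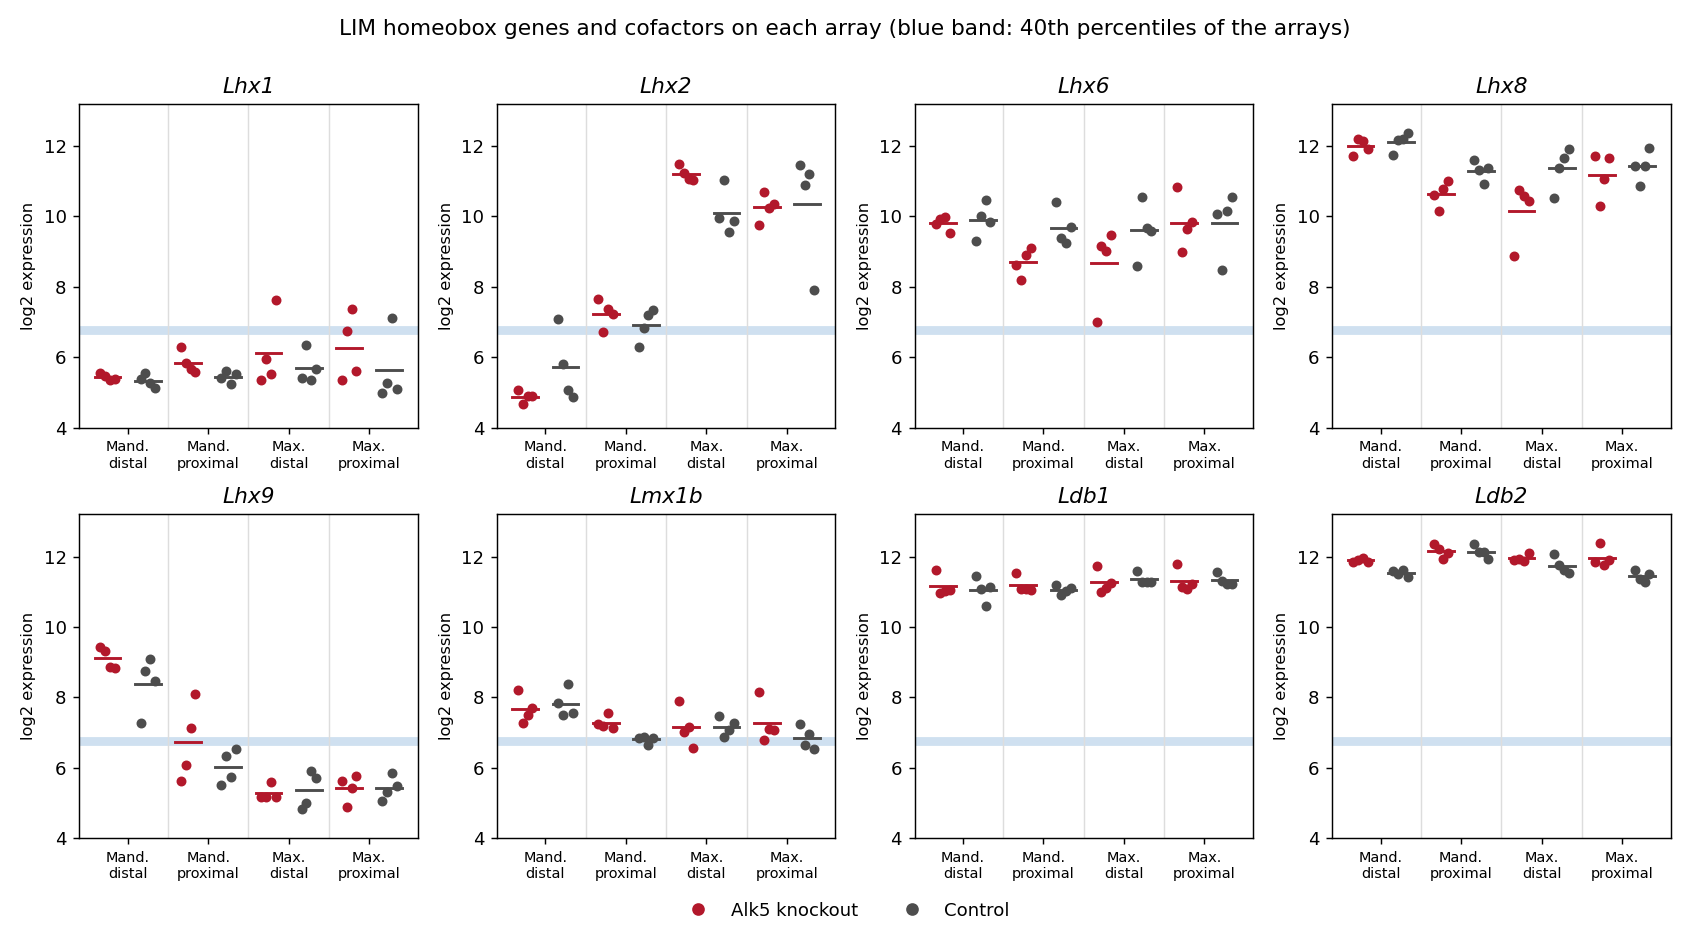
Log2 expression (y axis) of the 8 genes on each of the 32 arrays, by jaw and end (x axis), with Alk5 knockout in red to the left of control in grey. Points are arrays in the order of their numbers, bars are means of 4, and the blue band spans the 40th percentiles of the arrays (6.66 to 6.86). Lhx2 is high in the maxilla, Lhx9 in the distal mandible, and Lhx1 is under the band on all but 4 arrays.

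Lhx8 and Lhx6, the LIM homeobox genes of oral mesenchyme, were expressed in every region of both genotypes, and both averaged lower in Alk5 knockout jaws. On the mean of the 4 regions, Lhx6 read 9.04, 9.07, 9.38 and 9.48 in Alk5 knockout numbers 1 to 4, against 9.60, 9.61, 9.88 and 9.92 in control. Lhx8 read 10.73, 10.84, 11.14 and 11.25 in Alk5 knockout numbers 1 to 4, against 11.32, 11.43, 11.56 and 11.90 in control. For each gene the 4 Alk5 knockout values lay below all 4 control values, with a difference of -0.51 ± 0.12 (SE) for Lhx6 and -0.56 ± 0.15 for Lhx8. How many of all tested genes separate in this way was not counted, which holds for every later statement that groups did not overlap. Neither Lhx6 nor Lhx8 passed limma's test without a block (adjusted p = 0.0999 for Lhx6 and 0.131 for Lhx8), in a comparison where 1.37% of the 13705 tested genes passed and 0 of the 8 members did. In this comparison arrays of equal number deviated together. With the number as a block, 2 of the 8 members passed, Lhx6 (adjusted p = 0.0115) and Lhx8 (adjusted p = 0.013), against 2.83% of all genes. Within numbers 1 to 4, Lhx6 was lower in Alk5 knockout by -0.56, -0.54, -0.50 and -0.44, and Lhx8 by -0.60, -0.58, -0.43 and -0.64. The sign was the same in each number, and the part of sex in these values was not tested. Without control set 2 and Alk5 knockout set 4, whose maxilla arrays stood apart, the differences were -0.64 for Lhx6 (adjusted p = 0.204) and -0.69 for Lhx8 (adjusted p = 0.278) in a fit without a block. The blocked call depended on the number of sets: it held without number 1 (adjusted p = 0.011 for Lhx6 and 0.0141 for Lhx8) and not without number 2, 3 or 4 (0.056 to 0.0913), while the differences stayed between -0.49 and -0.61. In the same average comparison 2 of 6 macrophage genes rose, 1 of 10 neuron genes fell, and 0 of 6 mesenchyme, 0 of 8 muscle, 0 of 8 oral epithelium, 0 of 5 cartilage, 0 of 6 olfactory and 0 of 4 brain and pituitary genes passed. The part of macrophage and neuron content in the Lhx6 and Lhx8 values was not tested. In bulk tissue, fewer cells of a type and less RNA per cell cannot be told apart.

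By region, the lower levels of the pair lay mainly in the distal maxilla and the proximal mandible. In the distal maxilla, Lhx8 read 8.88, 10.76, 10.57 and 10.45 in Alk5 knockout, against 10.51, 11.37, 11.67 and 11.90 in control. Control number 1 alone reached into the Alk5 knockout range, and the difference was -1.20 ± 0.35, which did not pass (limma, adjusted p = 0.096). Lhx6 read 6.99, 9.15, 9.03 and 9.48 in Alk5 knockout distal maxilla, against 8.60, 10.55, 9.68 and 9.59 in control. Here the groups overlapped, and the difference of -0.94 ± 0.48 did not pass (adjusted p = 0.411). Alk5 knockout number 1 was the lowest array of its group for both genes. Without the 4 maxilla arrays that stood apart, the differences in the distal maxilla were -1.29 for Lhx8 (adjusted p = 0.107) and -0.90 for Lhx6 (adjusted p = 0.387).

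In the proximal mandible, Lhx6 read 8.61, 8.20, 8.89 and 9.10 in Alk5 knockout, against 10.41, 9.38, 9.23 and 9.69 in control. The groups did not overlap, and the difference was -0.98 ± 0.48 (adjusted p = 0.42). Lhx8 read 10.60, 10.14, 10.79 and 10.99 in Alk5 knockout proximal mandible, against 11.60, 11.31, 10.93 and 11.36 in control, with a difference of -0.67 ± 0.35 (adjusted p = 0.463). The intervals were wide in the remaining regions too. In the distal mandible the difference was -0.14 for Lhx8 (95% interval -0.85 to 0.57) and -0.11 for Lhx6 (-1.09 to 0.88), and in the proximal maxilla -0.24 (-0.95 to 0.47) and 0.00 (-0.98 to 0.98). A second Lhx6 probe set of lower signal gave an average difference of -0.23 ± 0.16 (adjusted p = 0.633) with -0.86 in the proximal mandible, -0.28 in the distal maxilla, 0.26 in the distal mandible and -0.03 in the proximal maxilla (SE 0.38 each), none of which passed.

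**Figure D2:**
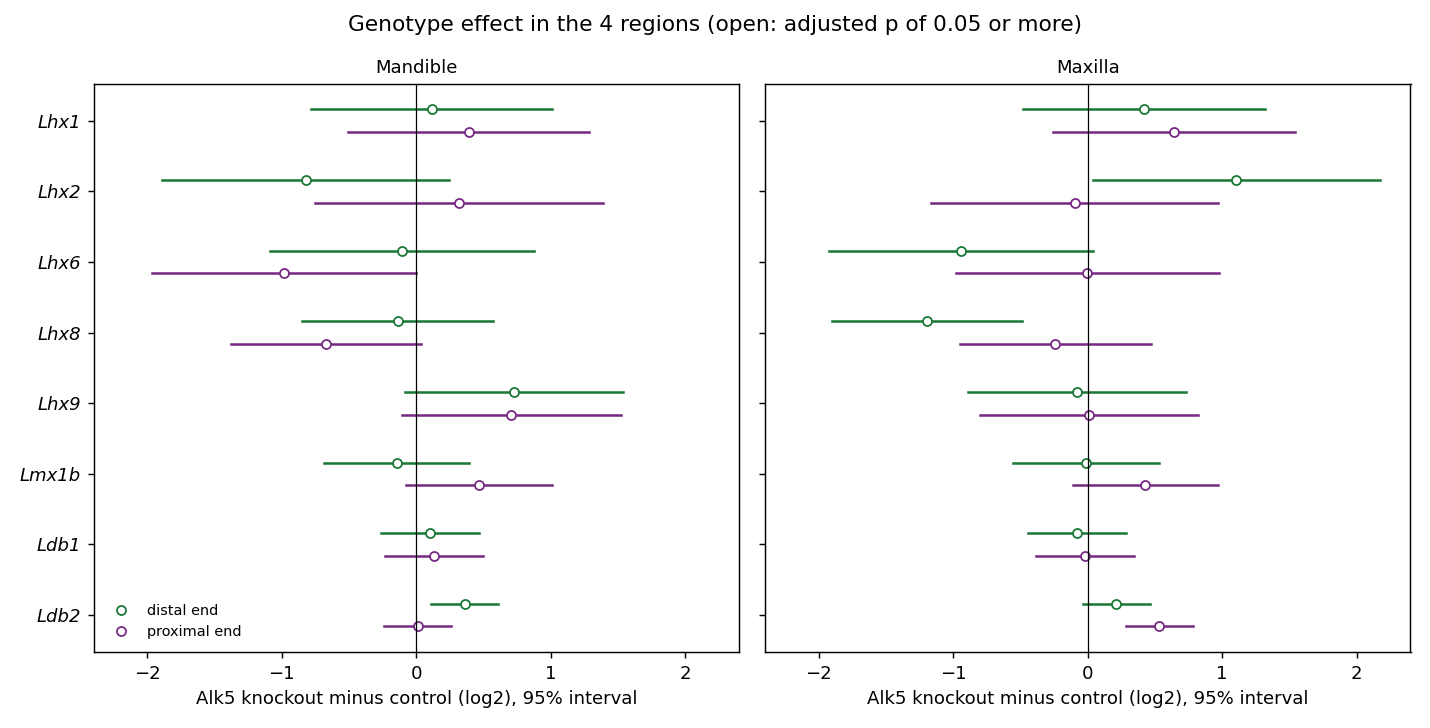
Difference between Alk5 knockout and control (x axis, log2) with its 95% interval for each gene, in the mandible (left) and maxilla (right), distal end in green and proximal end in purple. All points are open because none passed at an adjusted p of 0.05. The intervals that leave out 0 are those of Lhx8 (-1.20) and Lhx2 (1.11) in the distal maxilla, Lhx6 in the proximal mandible (-0.98), and Ldb2 in the distal mandible (0.36) and proximal maxilla (0.53).

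No member passed in any single region. Of the 8 members, 0 passed the genotype test in the distal mandible, where 1.91% of genes did, or proximally in the same jaw (1.26%), nor at the distal end (0.788%) or proximal end (0.0657%) of the maxilla. At an unadjusted p under 0.05 limma gave 4 members for the average, 1 in each region of the mandible, 2 in the distal maxilla and 1 in the proximal maxilla. The share of all genes at an unadjusted p under 0.05 is not given here, so these and later unadjusted counts show no excess of members. The median difference of the members was 0.15 for the average, beside 0 over all genes. No member passed the tests of genotype by end or jaw. The counts were 0 of 8 for end within mandible (0.0219% of genes) and within maxilla (0.0584%), and 0 of 8 for jaw at the distal end (0.102%) and at the proximal end (0.0073%). At an unadjusted p under 0.05 limma gave 0, 0, 2 (Lhx2 and Lhx8) and 1 (Ldb2) in that order. So a difference in one region and not in another was not shown to differ between regions.

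Lhx8 passed between jaws at the distal end and between the ends of the mandible in Alk5 knockout tissue, and in control tissue in neither. In Alk5 knockout tissue, Lhx8 read 11.70, 12.19, 12.13 and 11.92 in the distal mandible, above every array of the distal maxilla (8.88 to 10.76). This difference between jaws was 1.82 ± 0.35 (3.53-fold, limma, adjusted p = 0.000618), and in 21 alternatives it passed each time. In control tissue the same difference was 0.76 ± 0.35 and did not pass (adjusted p = 0.436), and the test of genotype by jaw at the distal end gave 1.06 ± 0.49 (adjusted p = 0.665). Lhx8 in the distal mandible of knockouts was also above the proximal mandible, by 1.35 ± 0.35 (adjusted p = 0.0176), against 0.82 ± 0.35 in control (adjusted p = 0.213). That call between ends of the knockout mandible was lost in 6 of 20 alternatives, all of which left out arrays: number 2, 3 or 4, or single arrays of number 2 (either end) or 3 (distal), with adjusted p up to 0.188. Markers of other cells moved with these comparisons. The macrophage list, tested in 6 of 6 genes, averaged 8.44 in knockout distal mandible, 9.71 proximally in that jaw and 9.72 in knockout distal maxilla, with 6 of 6 genes lower in mandible between jaws at the distal end and 5 of 6 lower at the distal end of the mandible. The skeletal muscle list, tested in 8 of 8 genes, was higher in the distal mandible (10.73) than in the distal maxilla (8.02) of knockouts for all 8 genes. The neural crest derived mesenchyme list averaged 12.74 in knockout distal mandible, 12.05 proximally in that jaw and 12.18 in knockout distal maxilla. Of its 6 genes 1 was higher in mandible between these jaws. Between these ends 1 of the 6 was higher and 1 lower distally. Between the jaws 8 of 10 neuron, 3 of 8 oral epithelium and 1 of 5 cartilage genes were lower in the mandible. Between the ends 2 of 10 neuron and 2 of 5 cartilage genes were lower distally. Of all genes 13.7% passed between these jaws and 5.03% between these ends, in either direction. The part of these cells in the Lhx8 differences was not tested. Lhx6 differed between jaws by 1.14 ± 0.48 at the distal end of knockouts (adjusted p = 0.116) and passed without the 4 maxilla arrays that stood apart (1.41, adjusted p = 0.0391). At the proximal end of knockouts the sign was opposite for both, with Lhx6 at -1.12 ± 0.48 (adjusted p = 0.321) and Lhx8 at -0.55 ± 0.35 (adjusted p = 0.698).

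Across the series Lhx6 and Lhx8 varied together. Pearson's r was 0.88 over the 8 group means and 0.84 over the 32 arrays after subtraction of each group's mean, both as a description of points that share arrays and dissections. The gene with the pattern most like Lhx8 was AI606473, a long noncoding RNA gene that is the next gene to Lhx8 on chromosome 3 (r = 0.98 over 8 group means, among 1557 genes whose means spanned at least 1 log2 unit). The same gene was also the most like Lhx6 (r = 0.91), and its deviations within groups correlated with those of Lhx8 at 0.97 and with those of Lhx6 at 0.83. Its promoter window, chr3:154330571-154330870 on the plus strand, overlaps the Lhx8 window printed above by 240 bases.

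AI606473 averaged lower in Alk5 knockout jaws. It was picked for likeness to Lhx8 over group means of both genotypes, so its difference is not independent of that of Lhx8. On the mean of 4 regions it read 10.17, 10.35, 10.76 and 10.73 in Alk5 knockout numbers 1 to 4, against 11.17, 11.19, 11.47 and 11.71 in control. The groups did not overlap, and the fall of -0.88 ± 0.17 passed limma's test (adjusted p = 0.0462), also with the number as a block (adjusted p = 0.0088). Of 23 alternatives 14 lost this call, each by leaving out 1 or 2 sets, with adjusted p up to 0.254. Over all 23 the difference ran from -1.03 to -0.72. In the distal mandible it averaged 11.54 ± 0.16 in Alk5 knockout and 11.98 ± 0.16 in control, and proximally in the same jaw 10.02 ± 0.44 in Alk5 knockout and 11.22 ± 0.29 in control (SD, n = 4 each). The distal maxilla averaged 9.67 ± 1.13 in Alk5 knockout and 11.11 ± 0.61 in control, and the proximal maxilla 10.77 ± 0.75 in Alk5 knockout and 11.22 ± 0.52 in control. In the distal and proximal mandible all 4 Alk5 knockout arrays lay below all 4 control arrays. The genes are read by different probe sets, and the strand that each probe set targets was not checked. Pde10a (r = 0.96) and Pde3a (r = 0.93), which encode cyclic nucleotide phosphodiesterases, followed AI606473 in likeness to Lhx8, and Pde10a (r = 0.85) and the tenascin gene Tnn (r = 0.82) did so for Lhx6.

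**Figure D3:**
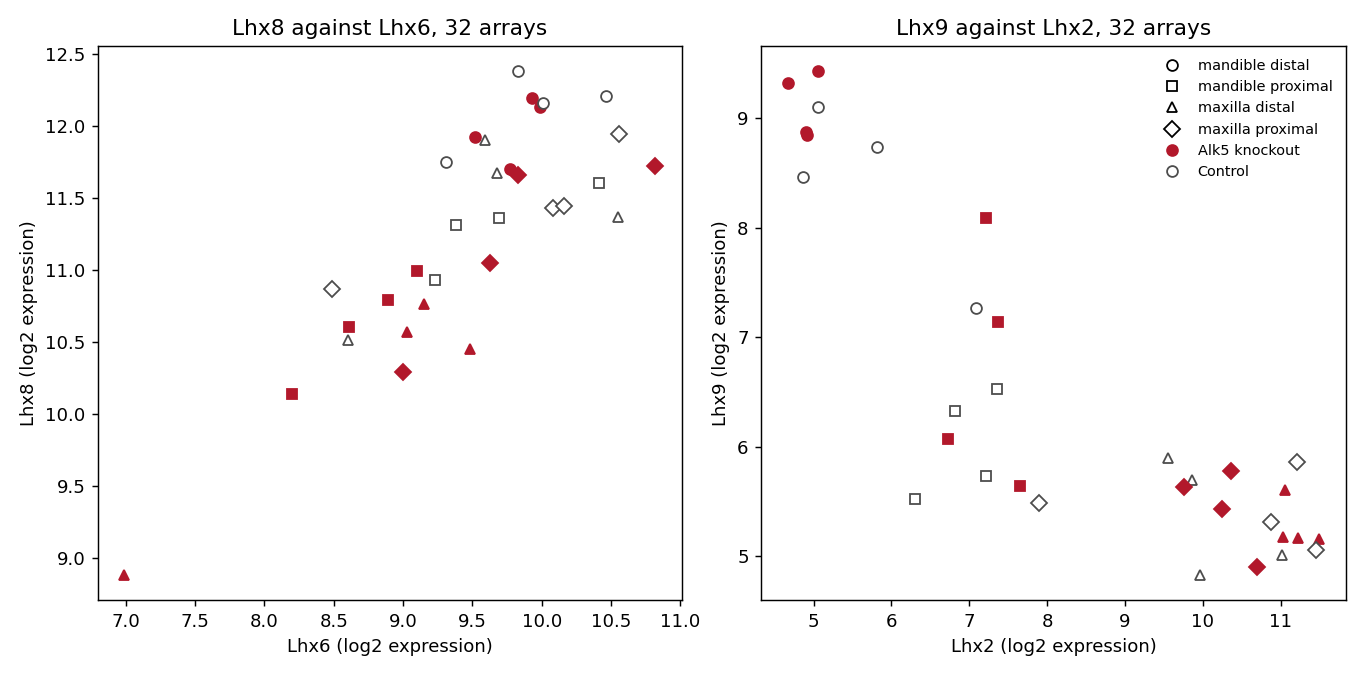
Lhx8 against Lhx6 (left) and Lhx9 against Lhx2 (right) on the 32 arrays, in log2 expression, with Alk5 knockout filled in red, control open in grey, and the shape giving jaw and end. Lhx8 and Lhx6 vary together in every region, while Lhx2 and Lhx9 separate by region.

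Lhx2, which acts in the development of forebrain, eye and limb, was a gene of the maxilla in these tissues. In the distal mandible it read 5.06, 4.67, 4.90 and 4.91 in Alk5 knockout and 7.09, 5.82, 5.06 and 4.87 in control, and in the distal maxilla 11.49, 11.22, 11.06 and 11.03 in Alk5 knockout and 9.96, 11.02, 9.55 and 9.86 in control. The proximal mandible was intermediate, at 7.65, 6.72, 7.37 and 7.22 in Alk5 knockout and 6.30, 6.82, 7.21 and 7.35 in control. The proximal maxilla gave 9.76, 10.70, 10.24 and 10.36 in Alk5 knockout and 11.45, 10.88, 11.21 and 7.90 in control. Every mandible array lay below every maxilla array, with control proximal maxilla number 4 the lowest of the maxilla and far from its own group.

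Mandible minus maxilla was -6.32 ± 0.52 in distal Alk5 knockout tissue (79.7-fold lower, limma, adjusted p = 1.09e-08) and -4.39 ± 0.52 in distal control tissue (adjusted p = 9.39e-06). At the proximal end it was -3.03 ± 0.52 in Alk5 knockout (adjusted p = 0.00069) and -3.44 ± 0.52 in control (adjusted p = 0.000108). Levels in the distal mandible lay at or under the arrays' 40th percentiles, except control number 1, so the sizes of these folds depend on the floor of the arrays. The proximal control difference moved to adjusted p = 0.0508 when only its 2 groups were fitted. All 4 differences passed without the 4 maxilla arrays that stood apart, with adjusted p from 1.83e-07 to 0.00352. Between the ends of the mandible, Lhx2 was lower at the distal end in Alk5 knockout tissue (-2.35 ± 0.52, adjusted p = 0.00592), a call lost without number 2 or 3 (adjusted p up to 0.102), and in control tissue the difference of -1.21 ± 0.52 did not pass (adjusted p = 0.227). In the distal maxilla every Alk5 knockout array of Lhx2 lay above every control array, by a narrow margin (11.03 against 11.02). Alk5 knockout minus control was 1.11 ± 0.52 there (adjusted p = 0.364, and 1.47 with adjusted p = 0.257 without the 4 maxilla arrays that stood apart) and -0.82 ± 0.52 in the distal mandible (adjusted p = 0.456). The test of genotype by jaw at the distal end gave -1.93 ± 0.74 (adjusted p = 0.555).

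Some markers of neural tissue moved with the difference between jaws. The neuron list, tested in 10 of 10 genes, averaged 7.71, 8.63, 10.44 and 10.20 in Alk5 knockout distal mandible, proximal mandible, distal maxilla and proximal maxilla, and 8.33, 9.33, 9.41 and 10.79 in control. Of its 10 genes, 8, 5, 2 and 5 were lower in mandible in distal knockout, proximal knockout, distal control and proximal control tissue. The brain and pituitary list, of which 4 of 8 genes passed the signal filter and were tested, averaged between 5.71 and 6.07 on the mandible arrays and between 6.06 and 10.05 on the maxilla arrays. The olfactory list, tested in 6 of 7 genes, averaged 8.68 to 9.73 on mandible arrays and 9.29 to 10.17 on maxilla arrays. Of the brain and pituitary genes 1 of 4 was lower in mandible in each of these comparisons. Of the 6 olfactory genes 2, 1, 1 and 1 were lower in mandible in the order above, and 1, 1, 0 and 1 were higher. Over all genes 13.7%, 3.06%, 1.47% and 5.4% passed in that order, in either direction. The part of neural tissue in the Lhx2 result was not tested. On control proximal maxilla number 4, where Lhx2 was lowest in the maxilla, the neuron list was at its highest (12.19) and the brain and pituitary list at its lowest for a maxilla array (6.06). The genes with patterns most like Lhx2 were the tight junction gene Cldn9 (r = 0.99), the galactolipid synthesis gene Ugt8a (r = 0.98) and Nol4 (r = 0.98), over 8 group means.

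**Figure D4:**
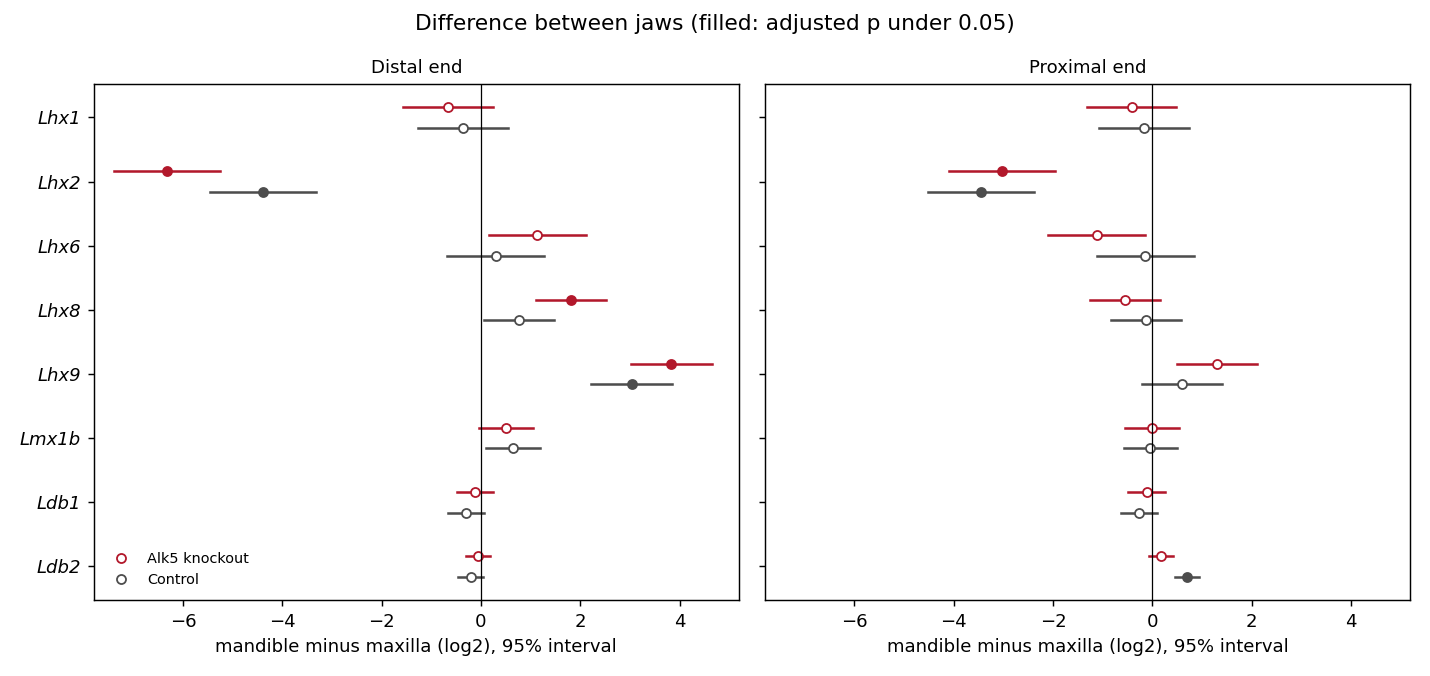
Mandible minus maxilla (x axis, log2) with its 95% interval for each gene, at the distal end (left) and the proximal end (right), with Alk5 knockout in red above control in grey. Filled points passed at an adjusted p under 0.05. Lhx2 is lower in mandible in all 4 comparisons (-6.32, -4.39, -3.03 and -3.44), Lhx9 is higher at the distal end in both genotypes, and Lhx8 at the distal end of Alk5 knockouts.

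Lhx9, the closest relative of Lhx2 and a gene of limb and gonad development, marked the distal mandible. It read 9.43, 9.32, 8.87 and 8.85 in Alk5 knockout and 7.27, 8.74, 9.10 and 8.46 in control distal mandible. In the proximal mandible it read 5.64, 6.07, 7.14 and 8.09 in Alk5 knockout and 5.52, 6.33, 5.73 and 6.53 in control. All 16 maxilla arrays lay between 4.83 and 5.90, under the 40th percentile of every array. Distal mandible was thus high in both genotypes. In the proximal mandible 2 of 4 Alk5 knockout arrays and 0 of 4 control arrays were above the percentile, so the differences below that involve this region or the maxilla were taken against a group at the floor, and their sizes and any likeness of sizes depend on it.

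Mandible minus maxilla for Lhx9 was 3.84 ± 0.40 in distal Alk5 knockout tissue (limma, adjusted p = 2e-07) and 3.04 ± 0.40 in distal control tissue (adjusted p = 2.96e-05). Distal minus proximal within the mandible was 2.38 ± 0.40 in Alk5 knockout (adjusted p = 0.000323) and 2.37 ± 0.40 in control (adjusted p = 0.000656). The last of these did not pass without number 3 (adjusted p = 0.0568), and the other 3 passed in each alternative run. A second probe set of Lhx9 gave 4.04, 2.59, 2.49 and 2.11 for the same 4 differences, and all of them passed. At the proximal end the jaws differed by 1.30 ± 0.40 in Alk5 knockout tissue (adjusted p = 0.0751). There the arrays of equal number deviated together, and with the number as a block Lhx9 passed (adjusted p = 0.0344). Without a block the difference was 1.73 without number 1 (adjusted p = 0.0104), 1.34 without number 2 (0.289), 1.16 without number 3 (0.543) and 0.96 without number 4 (0.477). Alk5 knockout number 4, and less so number 3, read higher in the proximal mandible than the other arrays of that region. Alk5 knockout minus control for Lhx9 was 0.72 ± 0.40 in the distal mandible (adjusted p = 0.375) and 0.71 ± 0.40 in the proximal mandible (adjusted p = 0.519). Over 8 group means Lhx9 and Lhx2 correlated at -0.92, and within groups at -0.27, on points that share arrays. The homeobox gene Tlx1 (r = 0.97), the T-box gene Tbx5 (r = 0.96) and the keratin gene Krt5 (r = 0.96) were most like Lhx9, although Krt5 ranged from 7.47 to 12.15 within control distal maxilla alone.

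Lmx1b, which sets dorsal identity in the limb and is needed for dopamine neurons, had low signal in all groups. It read 8.21, 7.28, 7.51 and 7.69 in Alk5 knockout and 7.83, 7.49, 8.39 and 7.57 in control distal mandible. In the proximal mandible it read 7.26, 7.18, 7.57 and 7.12 in Alk5 knockout and 6.86, 6.88, 6.66 and 6.86 in control. Those proximal mandible groups did not overlap, and the difference of 0.47 ± 0.26 did not pass (limma, adjusted p = 0.53). Within the control mandible Lmx1b was higher at the distal end by 1.00 ± 0.26 (adjusted p = 0.0243), and 5 of 19 alternatives lost this call: without number 2, 3 or 4, without control distal mandible number 3, and without control proximal mandible number 3, with adjusted p up to 0.468. Markers of other cells moved with this comparison. The oral epithelium list, tested in 8 of 9 genes, averaged 11.11 in control distal and 10.10 in control proximal mandible, with 3 of 8 genes higher at the distal end. Of the muscle genes 2 of 8 and of the neuron genes 2 of 10 were lower there. Their part in the Lmx1b value was not tested. Control distal mandible number 3 is the array with the deviating Gapdh reading and the highest Lmx1b. In the Alk5 knockout mandible the difference was 0.39 ± 0.26 (adjusted p = 0.581), and the interaction of genotype with end gave -0.61 ± 0.37 (adjusted p = 0.999). The genes most like Lmx1b over 8 group means were Fzd10os (r = 0.97), Anxa8 (r = 0.97) and the Wnt ligand gene Wnt9b (r = 0.96).

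Lhx1, an organiser gene of the early head, was at the limit of measurement. It lay above the 40th percentile on 4 of 32 arrays, the number the signal filter asks for, and these were Alk5 knockout distal maxilla number 4 (7.62), Alk5 knockout proximal maxilla numbers 2 (6.75) and 3 (7.36), and control proximal maxilla number 3 (7.12). The other 28 arrays read 4.99 to 6.35. The same 4 arrays had the highest means of the brain and pituitary list, at 10.05, 9.34, 9.26 and 9.22, with 8.61 the highest elsewhere, and the part of such tissue in the Lhx1 signal was not tested. Lhx1 passed in none of the 17 comparisons, and its average difference between Alk5 knockout and control was 0.39 ± 0.13 (adjusted p = 0.211).

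Ldb1, the main cofactor of LIM homeodomain proteins, was even across regions and genotypes, and its variation followed the array number. Group means were 11.17, 11.19, 11.28 and 11.30 in Alk5 knockout distal mandible, proximal mandible, distal maxilla and proximal maxilla, and 11.06, 11.06, 11.36 and 11.32 in control. On the 8 arrays of number 1 it read 11.18 to 11.78, and on the other 24 arrays 10.60 to 11.30, so the ranges barely overlapped. Number 1 is also the set with the high spike-in reading. The average difference between Alk5 knockout and control was 0.03 ± 0.15 (95% interval -0.30 to 0.37), and Ldb1 passed in none of the comparisons.

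Ldb2, the second cofactor gene, read higher in knockout than in control mainly in the distal mandible and the proximal maxilla. In the distal mandible it read 11.84, 11.91, 11.97 and 11.86 in Alk5 knockout, against 11.60, 11.50, 11.62 and 11.42 in control. In the proximal maxilla it read 11.86, 12.38, 11.75 and 11.89 in Alk5 knockout, against 11.61, 11.35, 11.29 and 11.51 in control. In both regions all 4 Alk5 knockout arrays were above all 4 control arrays, with differences of 0.36 ± 0.12 (limma, adjusted p = 0.128) and 0.53 ± 0.12 (adjusted p = 0.0975) that did not pass. How many of all tested genes separate in this way was not counted. The muscle list averaged 10.73 in Alk5 knockout and 9.29 in control distal mandible, and 9.41 and 8.82 in Alk5 knockout and control proximal maxilla, with 0 of 8 genes passing in either region. In the proximal mandible the groups were alike, at 12.15 ± 0.18 in Alk5 knockout and 12.14 ± 0.18 in control (SD, n = 4), and the 95% interval of the difference was -0.24 to 0.26. The average difference was 0.28 ± 0.08 (adjusted p = 0.144, and 0.0958 with the number as a block), positive in all 4 numbers (0.08, 0.43, 0.21 and 0.39). Without number 1 it was 0.34 ± 0.06 and passed (adjusted p = 0.0271), and without number 2, 3 or 4 it was 0.23, 0.30 and 0.24 and did not (0.46 to 0.519). The proximal maxilla difference likewise passed without number 1 (0.62, adjusted p = 0.0404) and not without number 2, 3 or 4 (0.37, 0.56 and 0.58, adjusted p 0.167 to 0.64). Without the 4 maxilla arrays that stood apart it was 0.53 (adjusted p = 0.266). In control tissue Ldb2 was higher in the proximal mandible than in the proximal maxilla by 0.70 ± 0.12 (adjusted p = 0.000527) and lower at the distal than at the proximal end of the mandible by -0.60 ± 0.12 (adjusted p = 0.00346, and 0.0531 without number 3). The muscle list moved with both, at 9.29 in control distal mandible, 11.65 in control proximal mandible and 8.82 in control proximal maxilla, with 5 of 8 genes higher in the proximal mandible than in the proximal maxilla and 2 of 8 lower at the distal end of the mandible. The oral epithelium list moved the other way, with 4 of 8 genes lower in the proximal mandible than in the proximal maxilla of control tissue and 3 of 8 higher at the distal end of the control mandible. The part of these cells in the Ldb2 values was not tested. In Alk5 knockout tissue these differences were 0.18 ± 0.12 (adjusted p = 0.76) and -0.25 ± 0.12 (adjusted p = 0.316). The test of genotype by jaw at the proximal end gave -0.52 ± 0.17 (unadjusted p = 0.00533, adjusted p = 1 in limma). Both other Ldb2 probe sets had the same signs in the distal mandible (0.49 and 0.38) and the proximal maxilla (0.49 and 0.56), and 1 of them had the opposite sign in the distal maxilla (-0.05). For the jaws of proximal control tissue 1 of the 2 passed (0.86, adjusted p = 0.0197) and the other did not (0.48, adjusted p = 0.309). For the ends of the control mandible neither passed (-0.51 and -0.74, adjusted p = 0.223 and 0.0567).

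Put in order of their 8 group means, most genes had few steps larger than the SDs of both neighbouring groups. Lhx2 had 2 such steps, of 2.86 between its lowest maxilla group (control distal) and its highest mandible group (Alk5 knockout proximal), and of 1.21 between control proximal and control distal mandible. Lhx9 also had 2, of 1.66 between control distal mandible and Alk5 knockout proximal mandible, and of 0.59 between control proximal mandible and the maxilla groups. Lhx8 had 1, of 0.56 between both distal mandible groups and the rest. For Lmx1b the 1 step, of 0.39, likewise set both distal mandible groups apart. The 1 step of Lhx6, of 0.91, lay between control distal maxilla and its 2 lowest groups, Alk5 knockout proximal mandible and Alk5 knockout distal maxilla. Lhx1, Ldb1 and Ldb2 had 0 such steps.

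Counted together, 3 of the 8 members passed between jaws in distal knockout tissue (Lhx2, Lhx8 and Lhx9), where 13.7% of all genes passed. The proximal end of knockouts gave 1 (Lhx2, 3.06% of genes), and 2 with the number as a block (4.04% of genes). Distal control tissue gave 2 (Lhx2 and Lhx9, 1.47%) and proximal control tissue 2 (Lhx2 and Ldb2, 5.4%). Between the ends of the mandible, 3 passed in knockouts (Lhx2, Lhx8 and Lhx9, 5.03%) and 3 in control (Lhx9, Lmx1b and Ldb2, 4.84%). Between the ends of the maxilla 0 of 8 passed in limma in either genotype, where 0% of all genes did, with 2 members at an unadjusted p under 0.05 in knockouts (Lhx6 and Lhx8) and 1 in control (Ldb2). That 0% depended on the 4 maxilla arrays that stood apart. Without them 131 of 13705 genes passed between these ends in knockouts and 184 in control, with 0 members in either. For the unadjusted counts no share of all genes is given. These comparisons share groups, and the members' values above are each comparison's own.

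The other genes of the LIM complex moved little with genotype. Of 5 tested genes among 6 other LIM homeodomain genes (Lhx5 did not pass the filter), 0 passed in the genotype comparisons, and Lmx1a alone passed between jaws (proximal control, 0.58 ± 0.16, limma, adjusted p = 0.0323, lost in 10 of 20 alternatives, each of which left out number 2, 3 or 4 or 1 array, with adjusted p up to 0.282). Of 8 tested genes of the LIM-only and Ldb complex list, 0 passed for genotype. Lmo1, a LIM-only competitor, was higher at the distal end of the control mandible by 2.00 ± 0.30 (adjusted p = 0.000192) and lower in the mandible than in the maxilla of proximal control tissue by -1.09 ± 0.30 (adjusted p = 0.0256), the second of which was lost in 6 of 21 alternatives. Lmo3 was lower in the mandible of distal knockout tissue (-0.93 ± 0.30, adjusted p = 0.0406), a call lost in 11 of 20 alternatives, most of which left out arrays (adjusted p up to 0.339). Ssbp2, of the family that stabilises Ldb proteins, was lower at the distal end of the mandible in knockouts (-0.36 ± 0.07, adjusted p = 0.00162) and control (-0.32 ± 0.07, adjusted p = 0.00668), and lower in the mandible of distal knockout tissue (-0.31 ± 0.07, adjusted p = 0.00286). With the mean of its probe sets all 3 Ssbp2 calls were lost, and the value between jaws changed sign (0.10, adjusted p = 0.79).

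The list of oral FGF genes was tested in 11 of 11. It holds FGF signals and receptors together with response genes, which are not inducers of Lhx6 and Lhx8. In the genotype comparisons 1 passed, in a region where 1.26% of all genes did, the feedback inhibitor gene Spry4, which was lower in the proximal mandible of knockouts (-0.66 ± 0.14, limma, adjusted p = 0.0126, lost in 7 of 19 alternatives, among them leaving out number 1, 2 or 3, with adjusted p up to 0.277). Its average difference was -0.29 ± 0.07 (adjusted p = 0.107). Between the ends of the knockout mandible 2 of the 11 passed, where 5.03% of all genes did. These were the response genes Etv4 and Etv5, higher at the distal end (0.70 ± 0.14 and 0.66 ± 0.13, adjusted p = 0.00162 each). The other 9 did not pass, and the median difference of the list was 0.009. Lhx8 was also higher in this comparison, and a link to these genes was not tested. Etv4 was higher between jaws in distal knockout tissue too (0.51 ± 0.14, adjusted p = 0.0107), Spry4 in proximal control tissue (0.48 ± 0.14, adjusted p = 0.0432, lost in 13 of 21 alternatives), and Fgfr2 at the distal end of the control mandible (0.62 ± 0.14, adjusted p = 0.00782). Each was the only 1 of the 11 to pass in its comparison, where 13.7%, 5.4% and 4.84% of all genes did. The Fgfr2 call was lost in 3 of 20 alternatives (mean of the probe sets, without number 3 and without number 4), with values down to 0.35 and adjusted p up to 0.451. Etv5 was lost in 2 of 20 (mean of the probe sets and without number 4, adjusted p up to 0.206), and Etv4 between jaws in 2 of 21 (without number 1 or 4, adjusted p up to 0.0668). The jaw mesenchyme transcription factor genes, tested in 12 of 12, passed in 0 genotype comparisons. Between jaws 6 of 12 passed as higher in the mandible of distal knockout tissue (13.7% of all genes passed there in either direction), and 5 (3.06%), 3 (1.47%) and 5 (5.4%) in proximal knockout, distal control and proximal control tissue. Hand2, a mandibular regulator, had differences of 5.72, 3.58, 5.00 and 3.47 in that order, and Pitx1, a hindlimb and jaw homeobox gene, had 1.94, 2.12, 2.71 and 2.56. With the mean of its probe sets the Hand2 values at the proximal end were 1.92 in knockouts and 1.84 in control, and with only the compared groups fitted the proximal control call was lost (adjusted p = 0.0779). Hand2 is thus high in the jaw in which Lhx2 is low. The list was chosen with such jaw differences known and is not independent evidence of them.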

How the data were processed

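The values are log2 expression as the authors deposited it, computed by RMA per the submitters' processing notes. Its version and the genome build are not given in the sources used here. RMA fits all arrays to 1 distribution and compresses differences at low signal. The 45101 probe sets comprised 34945 with 1 gene symbol, 932 with several, 9160 with none and 64 controls. Those kept lay above their array's 40th percentile on at least 4 arrays, and the probe set of highest mean stood for its gene, giving 13705 tested genes. Of the symbols, 34741 probe sets matched a RefSeq table (GRCm38.p6), with 0 symbols changed.

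limma 3.58.1 in R 4.3.3 (lmFit, eBayes) fitted the 8 group means to all 32 arrays (residual degrees of freedom 24). For the average over regions the data were the mean of the 4 regions of each genotype and number, 4 against 4 (6 residual degrees of freedom). P-values were adjusted by the Benjamini-Hochberg method over all tested genes of a comparison, with a threshold of 0.05, and all adjusted p-values come from limma. SE stands after each difference and SD after each group mean. The number of arrays limits the precision.

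Equal numbers correlated in their deviations from the group means by more than 0.1 in each of 4 pairs for the average genotype effect (0.44, 0.20, 0.40 and 0.23), for the jaws at the proximal end of knockouts (0.20 to 0.38) and for the ends of the knockout mandible (0.19 to 0.67), and in no other comparison of 2 groups. The numbers were taken to pair the samples there, on the evidence of these values and not of a label.

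The members, gene lists and tests were chosen with earlier results of these data known. The named genes are all members, up to 4 called genes per list and comparison, and the 3 genes most like each of Lhx2, Lhx6, Lhx8, Lhx9 and Lmx1b. Other settings tried were the filter, the probe set per gene, repeated quantile normalization, blocks, array weights, and leaving out arrays. On simulated data for the distal mandible (13705 genes, 50 changed at each size), the model recovered 24 at a log2 change of 0.5, 43 at 1, 50 at 2 and 49 at 3, with 12 false calls.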

Additional observations from a re-analysis of the deposited data

Results flagged for a closer look

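Of 64 groups of 4 values (8 genes in 8 groups), 8 held an array far from the other 3, with a gap to the nearest that made up most of the group's range (above Dixon's critical value for 4 samples). Chance gives about 1 in 20 such groups. Ldb1 accounted for 3, all of number 1 and all high: 11.61 in Alk5 knockout distal mandible (others 10.97 to 11.06), 11.54 in Alk5 knockout proximal mandible (others 11.04 to 11.09) and 11.60 in control distal maxilla (others 11.27 to 11.29). The spike-in readings of number 1 were high as well, and their part in the Ldb1 values was not tested.

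Lhx8 read 8.88 on Alk5 knockout distal maxilla number 1 (others 10.45 to 10.76), where Lhx6 was also lowest. Lhx2 read 7.90 on control proximal maxilla number 4 (others 10.88 to 11.45). Lhx1 read 7.12 on control proximal maxilla number 3 (others 4.99 to 5.28), the array of its group with the highest mean of the brain and pituitary list. Lhx9 read 5.61 on Alk5 knockout distal maxilla number 3 (others 5.16 to 5.18), and Lmx1b 6.66 on control proximal mandible number 3 (others 6.86 to 6.88), both near the floor of the arrays.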

How the results depend on the processing

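The 14 calls of members kept their direction in all 287 checks and passed in 271 of them. Low signal limits Lhx1, Lmx1b, Lhx9 outside the distal mandible and Lhx2 in the distal mandible, since RMA compresses differences there. The replicate block gave 2 members for the average genotype effect, 1 in the distal maxilla (Lhx8, adjusted p = 0.0493), 1 in the proximal maxilla (Ldb2, adjusted p = 0.0439) and 2 between jaws at the proximal end of knockouts, and it changed no other count of members. For the maxilla regions the numbers do not pair the arrays. Over all genes the block moved the calls to 388 against 188 for the average, 729 against 262, 478 against 172, 315 against 108 and 34 against 9 in distal mandible, proximal mandible, distal maxilla and proximal maxilla, and 12 against 3 and 3 against 1 for genotype by end within mandible and by jaw at the proximal end. Added after seeing the data, the block without number 1 gave 3 members for the average, and without number 2, 3 or 4 it gave 0. Sets as a random block (correlation 0.202) gave 2 between jaws at the proximal end of knockouts. Fitting only the compared groups gave 1 between jaws in proximal control tissue.

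Array weights gave 4 members for the average, 1, 2, 3 and 1 for genotype in distal mandible, proximal mandible, distal maxilla and proximal maxilla, 5 and 4 between jaws at the distal and proximal end of knockouts, 1 between the ends of the knockout maxilla and 6 between those of the control mandible, and 2, 1 and 1 for genotype by end within mandible and by jaw at the distal and proximal end. Over all 13705 tested genes they called 1687 against 188 for the average. For genotype in the regions they called 2641, 3368, 2480 and 213 genes in the same order. Between jaws of knockouts they called 5779 and 3539, and between the ends of the knockout maxilla and control mandible 1501 and 4445. The tests of genotype by end and by jaw gave 583, 910 and 155 in the order above. The cause of these counts was not tested. Leaving out arrays gave 0 to 1 members for the average, 0 to 1 for genotype in the proximal maxilla, 1 to 2 between jaws at the proximal end of knockouts, and 1 to 3 and 0 to 4 between the ends of the knockout and control mandible. Number 3 made the last of these 0. For Ssbp2 between jaws in distal knockout tissue, the mean of its probe sets gave 0.10 (adjusted p = 0.79), against -0.31, and the cause was not tested. The average was not fitted with sets as a random block. Added after seeing the data, leaving out control set 2 and Alk5 knockout set 4 together gave 0 members for it.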
